A study of Mus musculus with 8 samples.

Results

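Fibroblast growth factor (FGF) signalling through the kinase ERK was described by 10 genes in mouse embryonic stem cells (mES cells): the ligand Fgf4, the receptors Fgfr1 and Fgfr2, the feedback inhibitors Spry2, Spry4, Spred1, Dusp5 and Dusp6, and the transcription factors Etv4 and Etv5. They were taken by name from a table of 18694 features, of which 17597 were genes and 1097 were transposable element subfamilies, and all 10 were found. Total RNA had been sequenced from 8 libraries of female cells of a Cast x 129S background. All of them carried an FKBP12 F36V degron on the C terminus of METTL3, the enzyme that writes N6-methyladenosine (m6A) on RNA, together with a TetOn promoter in place of the endogenous Xist promoter. The labels put that promoter on the 129S allele, whereas the study's text describes the parental line as carrying it on the Mus castaneus X chromosome. The 4 libraries of the dTAG-13 group came from cells given dTAG-13, the compound that triggers destruction of the tagged protein, for 26 hours, and the other 4 from cells that received none. Neither group received doxycycline, so Xist was not induced. Each group held the clones C3 and H5 with 2 libraries each, and the cells were grown with leukemia-inhibitory factor and serum on mitotically inactivated fibroblasts. Both clones are tagged lines, so no library represents cells with untagged METTL3.

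The values are pooled. The table gives for each gene a mean over all 8 libraries of read counts scaled for library size, called the mean count here, which mixes treated and untreated cells. It carries no spread, and no values of single libraries or groups were analysed here. The levels below are therefore descriptions of the cells as a whole. They say nothing about the response to dTAG-13, and where 2 genes lie close together their order could not be set against replicate error. The mean counts of all genes added up to 14573411, and the 10 genes made up 0.0946% of that sum.

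FGF ligands bind receptor tyrosine kinases at the cell surface together with heparan sulfate, and the activated receptor relays the signal through adaptors, RAS, RAF and MEK to ERK. ERK phosphorylates transcription factors and raises transcription of its own inhibitors, so Sprouty, Spred and dual-specificity phosphatase genes form negative feedback loops, and their transcript levels are widely used as a readout of pathway activity. In mES cells FGF4 is made by the cells themselves and drives them towards exit from the naive state and towards primitive endoderm.

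The transcripts were distributed over a wide range, with the ETS factor Etv5 and the ligand Fgf4 far above the receptors. Mean counts ran from 81.0 for Dusp5 to 4960 for Etv5, a ratio of 61.2. The median of the 10 genes was 864, against 170 for all genes, and 9 of the 10 lay above the median gene, Dusp5 being the exception. Because long transcripts collect more reads, genes were compared with each other per kb of exon, where the range was 32.7 to 1209 and the median 204, against 39.9 over 17375 genes with an annotated length. Again all but Dusp5 lay above the median gene. Among genes with a mean count of 10 or more, Fgfr1 and Fgfr2 also fell below the median per kb, which left 7 of the 10 above it. Of the 10 genes, Etv5 and Fgf4 were the ones that lay above 90% of all genes, and they did so on both scales.

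**Figure D1:**
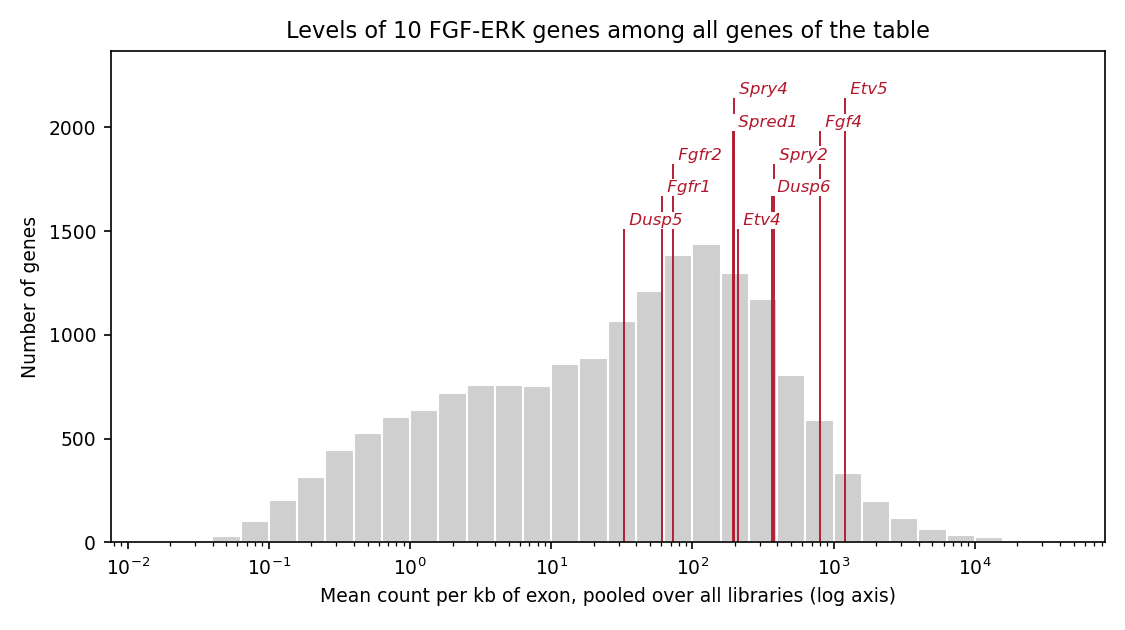
Histogram of the mean count per kb of exon (log axis) over 17375 genes, with the 10 FGF-ERK genes marked by red lines. Etv5 at 1209 and Fgf4 at 798 sit in the upper tail, Fgfr1 and Fgfr2 lie near the middle, and Dusp5 at 32.7 lies below the median of 39.9.

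Fgf4 encodes the secreted ligand that mES cells produce under control of OCT4 and SOX2. The gene lies on chromosome 7 (144847367 to 144865243, plus strand, GRCm38). Its mean count was 2551, higher than that of 92.3% of the other genes, and its level per kb was 798, higher than 93.9%. Pou5f1, which encodes OCT4, was 6.65 times higher per kb of exon, and between 6.65 and 10.8 times over 4 definitions of gene length. Fgf4 reached 0.477 of the level per kb of Sox2 (0.477 to 0.890 over the definitions) and 0.302 of that of Nanog (0.302 to 0.520).

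Of 22 Fgf genes searched, 20 were in the table, 12 had a mean count of at least 10 and 5 of at least 100. Among all genes these mean counts were reached by 77.2% and 56.3%. Fgf4 held 49.0% of the summed level per kb of these ligands. Fgf17, an Fgf8-like ligand, held 31.6%, with a mean count of 869 and a level per kb of 514. The other ligands were at most 5.63% each. Fgf5, a marker of the primed epiblast, had a mean count of 229, and Fgf15, whose product is an endocrine factor made by the adult gut, had 227. Fgf13, which encodes an intracellular protein that is not secreted as a ligand, had 191. Of ligands known from mesenchyme, Fgf10 had a mean count of 66.2, Fgf2 of 2.05 and Fgf7 of 1.16. Fgf6 and Fgf21 were not among the listed genes. The ratio of Fgf4 to Fgf17 depended on gene length: it was 1.55 per kb of exon, between 1.55 and 2.59 over the 4 definitions, and 2.94 on mean counts.

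The receptors were present at moderate levels. Fgfr1, on chromosome 8 (25513654 to 25575718, plus strand), is the main FGF receptor of the naive epiblast, and its mean count was 606. Fgfr2, on chromosome 7 (130162451 to 133123350, minus strand), is known for its role in trophoblast and primitive endoderm, and its mean count was 752. Per kb of exon the levels were 61.4 for Fgfr1 and 72.8 for Fgfr2, above 56.5% and 59.4% of the other genes. The ratio of Fgfr1 to Fgfr2 was 0.843 per kb and stayed between 0.690 and 0.843 over the 4 definitions of length, so Fgfr2 was the higher of the pair by a small margin whose error is unknown.

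Together Fgfr1 and Fgfr2 held 75.6% of the level per kb of the 4 receptor kinases. Fgfr3 held 22.0% with a mean count of 280, and Fgfr4 held 2.36% with a mean count of 14.9. Fgfrl1, a receptor-like gene whose product lacks the kinase domain, had a mean count of 137. Of the coreceptors for endocrine FGFs, Klb had a mean count of 217 and Kl of 3.11. The ligand exceeded its receptors: Fgf4 was 13 times higher than Fgfr1 and 11.0 times higher than Fgfr2 per kb of exon. With the mean transcript length in place of the union of exons the excess was 5.54 and 4.26 times. On mean counts, without division by length, it was 4.21 and 3.39 times. Both receptor genes have many annotated transcripts, 19 for Fgfr1 and 27 for Fgfr2, and the union of their exons is longer than any single one.

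**Figure D2:**
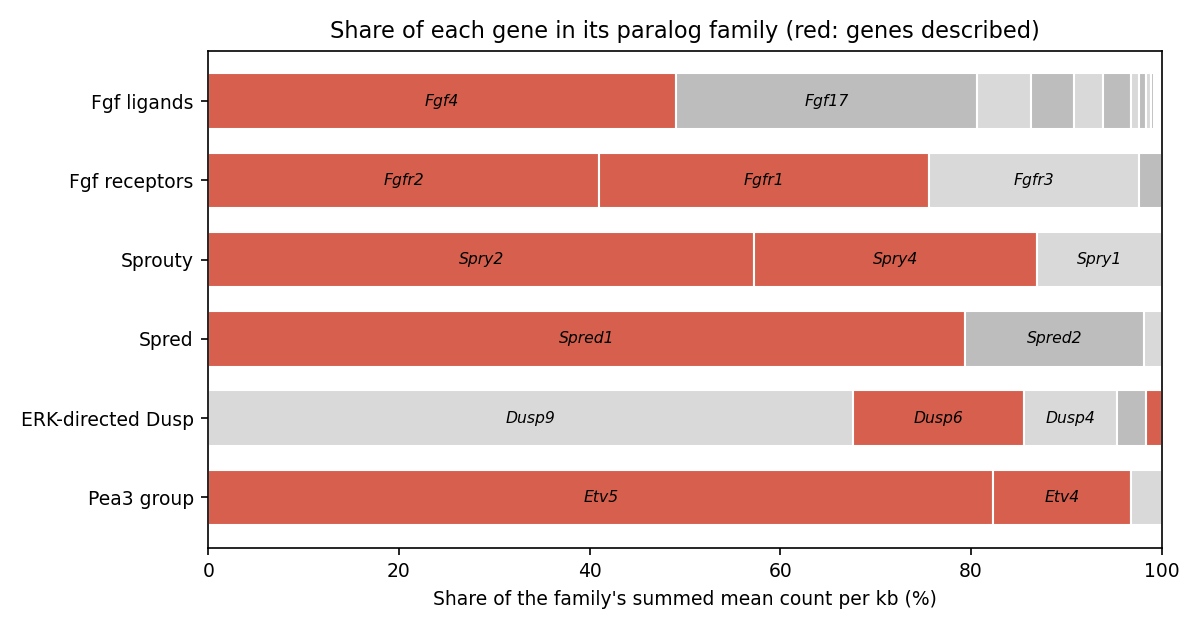
Stacked bars of the share (%) of each gene in the summed mean count per kb of its paralog family, with the genes described in red and their paralogs in grey. Fgf4, Fgfr2, Spry2, Spred1 and Etv5 hold the highest share of their families, Fgfr2 by a small margin. Dusp6 at 18% and Dusp5 at 1.61% stand behind Dusp9 at 67.6%.

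Sprouty proteins are membrane-associated inhibitors that interfere with RAS activation downstream of receptor tyrosine kinases. Spry2, on chromosome 14 (105891947 to 105896819, minus strand), had a mean count of 792, and Spry4, on chromosome 18 (38586247 to 38601415, minus strand), had 935. Here the scale decided the order. Spry4 was 1.18 times higher than Spry2 on mean counts, whereas per kb its level was 197 against 380 for Spry2, a ratio of 0.518 that was the same under all 4 definitions, since each gene has a single annotated transcript. Spry2 held 57.2% and Spry4 29.6% of the Sprouty level per kb. Spry1 held the remaining 13.1% with a mean count of 253, and Spry3 was not among the listed genes.

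Spred1 encodes a Sprouty-related protein that recruits neurofibromin, a RAS GTPase-activating protein, to the membrane. It lies on chromosome 2 (117121374 to 117182279, plus strand). Its mean count was 1309 and its level per kb 193, above 76.5% of the other genes. It held 79.4% of the Spred level per kb, with Spred2 at 18.8% and a mean count of 211, and Spred3 at 1.84% and a mean count of 27.8. Nf1, the gene of neurofibromin, had a mean count of 726 and a level per kb of 45.8.

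Dusp6 and Dusp5 encode phosphatases that remove the activating phosphates from ERK, DUSP6 in the cytoplasm and DUSP5 in the nucleus. Dusp6, on chromosome 10 (99263231 to 99267489, plus strand), had a mean count of 1149 and a level per kb of 367, above 86.3% of the other genes. Dusp5, on chromosome 19 (53529109 to 53542431, plus strand), was the lowest of the 10 genes, with a mean count of 81.0 and a level per kb of 32.7, above 47.4% of the other genes. Dusp6 was 11.2 times higher than Dusp5 per kb, and up to 20.7 times with another definition of length. Dusp6 held 18% of the summed level per kb of the 5 phosphatases, and 27.6% when the mean transcript length was used. The most abundant phosphatase of this group was Dusp9, an X-linked gene whose product also acts on ERK in the cytoplasm, with a mean count of 3751 and a level per kb of 1378. That level was 3.75 times that of Dusp6, and the ratio fell to 2.03 under the definition of length least favourable to Dusp9. Dusp4, which encodes a nuclear phosphatase, had a mean count of 543, and Dusp7 had 212.

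Etv4 and Etv5 belong to the PEA3 group of ETS transcription factors, whose genes are induced by FGF signalling in many tissues. Etv5, on chromosome 16 (22381309 to 22439719, minus strand), was the highest of the 10 genes on both scales. Its mean count of 4960 ranked 512 among 17597 genes, and its level per kb of 1209 lay above 96.4% of the other genes. Etv4, on chromosome 11 (101769742 to 101785371, minus strand), had a mean count of 657 and a level per kb of 212. Etv5 was 5.71 times higher than Etv4 per kb, and at least 4.55 times under each definition of length. Etv5 held 82.3% of the level per kb of the PEA3 group, Etv4 14.4% and Etv1 3.26%. Etv1 had a mean count of 636, close to that of Etv4, but its exons add up to 13296 bases against 3104.

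The order of the 10 genes per kb was Etv5, Fgf4, Spry2, Dusp6, Etv4, Spry4, Spred1, Fgfr2, Fgfr1 and Dusp5. Etv5 and Fgf4 came first and second, and Dusp5 last, under all 4 definitions of length. The genes between them changed places. Dusp6 passed Spry2 in the other 3 definitions, and Spry4 fell to the place above Dusp5 when the mean transcript length was used. The 3 genes with a single transcript, Spry2, Spry4 and Dusp5, had the same level throughout, while those of Fgfr1 and Fgfr2 rose from 61.4 to 269 and from 72.8 to 350.

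**Figure D3:**
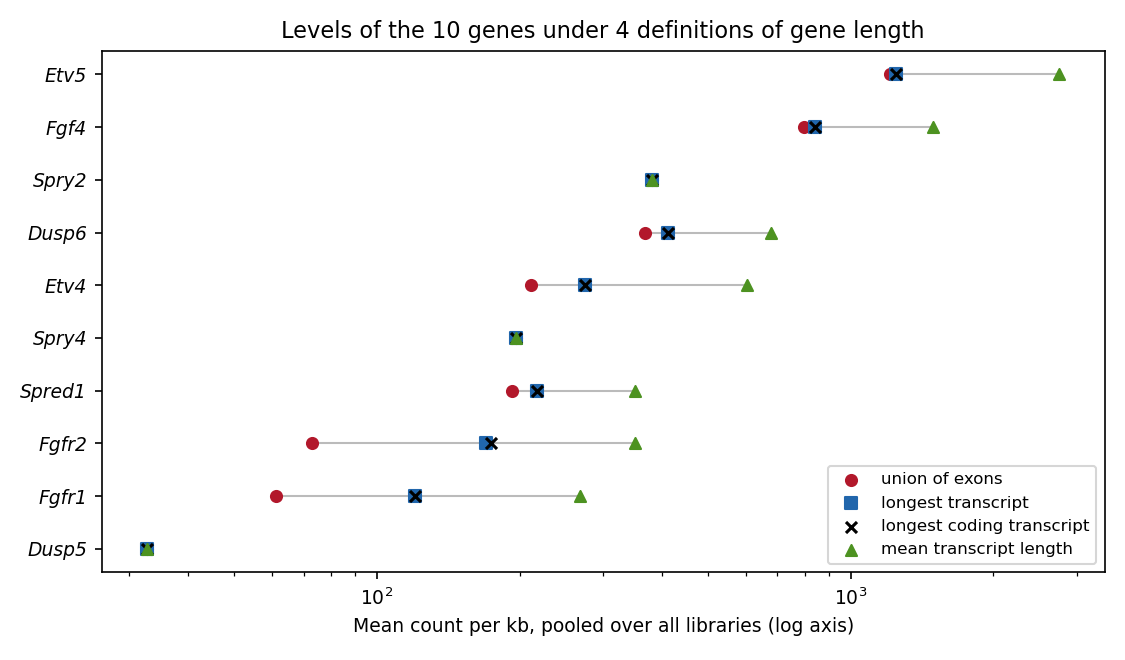
Mean count per kb (log axis) of the 10 genes when the length is the union of all exons, the longest transcript, the longest coding transcript or the mean transcript length. Grey lines join the 4 values of a gene, and the receptors Fgfr1 (61.4 to 269) and Fgfr2 (72.8 to 350) move most.

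The rest of the pathway was present at every step between receptor and nucleus. All 8 genes searched for heparan sulfate synthesis and its core proteins had a mean count of at least 100, which 56.3% of all genes reached. Sdc4 (575) and Gpc3 (520), which encode cell surface proteoglycans, had the highest levels per kb. The others were Hs6st1 (178), Gpc4 (145), Ext1 (134), Ext2 (90.1), Hs2st1 (70.6) and Ndst1 (24.1).

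Of 21 genes of the signal relay, all were in the table and 20 had a mean count of at least 100, the exception being the scaffold gene Ksr1 with 93.6. Among all 17597 genes 56.3% reached that mean count. The MEK gene Map2k1 was the highest of them per kb (622). Nras stood at 488 per kb and Mapk3, which encodes ERK1, at 224. Of the adaptors, levels per kb were 300 for Ptpn11, 274 for Shc1, 254 for Grb2, 249 for Crkl, 192 for Gab1, 111 for Plcg1, 70.4 for Sos1, 68.0 for Frs2, 40.2 for Frs3 and 19.6 for Sos2. Further relay genes stood at 339 for Hras, 227 for Map2k2, 156 for Araf and 76.5 for Braf.

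Of 17 genes that act as brakes on the pathway, 16 were in the table. Of these brakes, 14 (87.5%) had a mean count of at least 100, against 56.3% of all genes. Besides those above, they include Rasa1, which encodes a RAS GTPase-activating protein (level per kb 227), Il17rd, also known as Sef, an inhibitor at the membrane (71.4), the ubiquitin ligase gene Cbl (51.4) and Rasa2 (16.6). Spry2, Spry4, Spred1, Dusp5 and Dusp6 together made up 34.8% of the summed level per kb of the brakes, and Dusp9 alone exceeded that sum.

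All 11 nuclear targets searched were in the table, and 8 (72.7%) had a mean count of at least 100, against 56.3% of all genes. Erf, which encodes an ETS repressor that ERK expels from the nucleus, was second per kb at 324, behind Etv5. Ets2 stood at 113, Elk1 at 77.7, Etv3 at 30.6 and Elk4 at 19.0. Elk3 and Ets1 had mean counts of 78.7 and 59.5. Egr1, an immediate early gene that rises within minutes of ERK activation, had a mean count of 87.9 and a level per kb of 19.6, above 41.0% of the other genes.

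**Figure D4:**
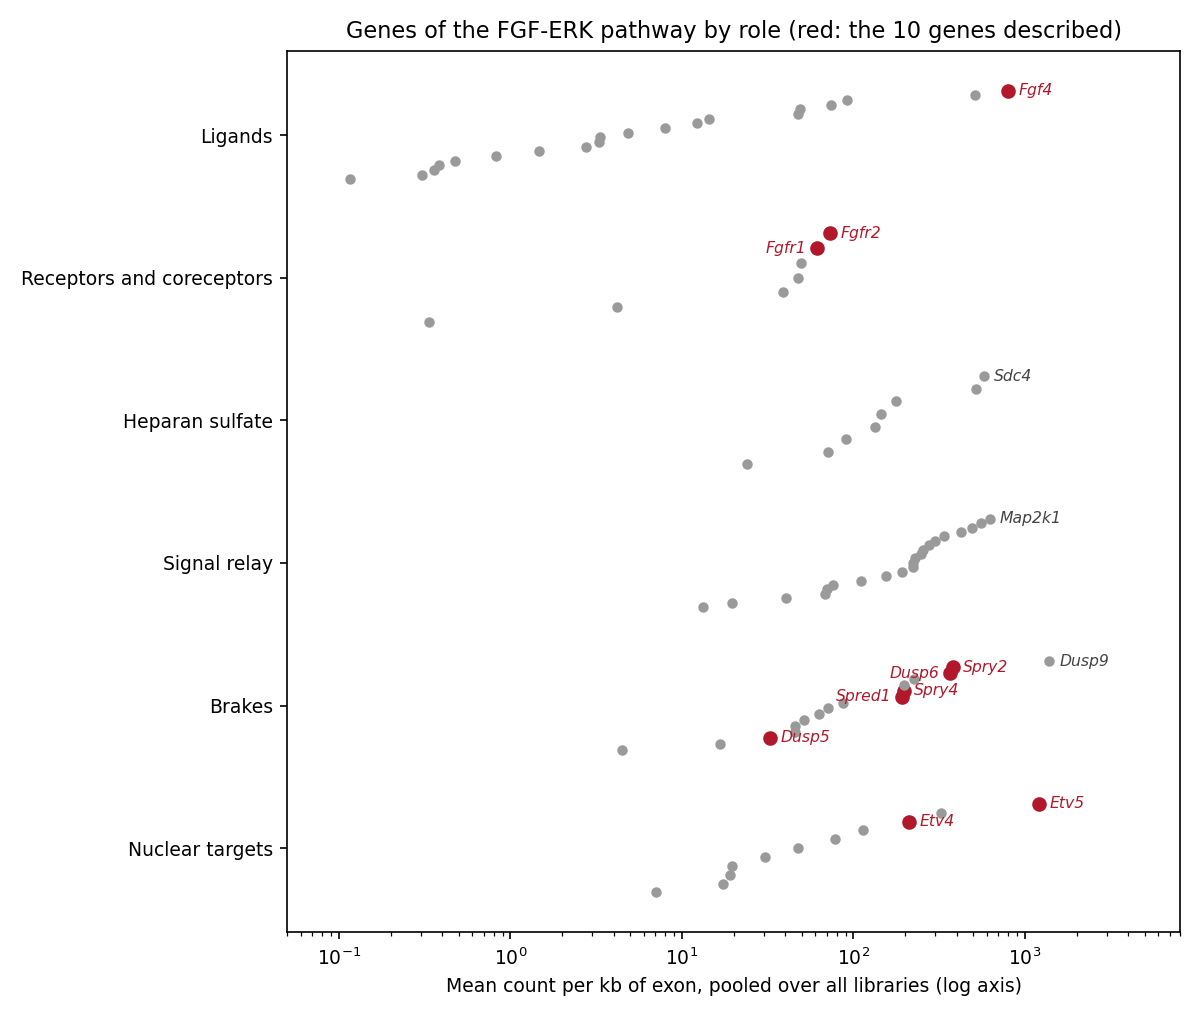
Mean count per kb of exon (log axis) of 83 pathway genes in 6 role lists, with the 10 genes described in red and other genes in grey. The highest gene of each list is labelled, and the ligands span the widest range, from 0.116 for Fgf12 to 798 for Fgf4.

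The labelled cell type was checked against marker genes, since bulk RNA cannot tell fewer cells of a type from less RNA per cell. All 10 markers of mES cells were abundant, Utf1 having the lowest mean count at 1019, and the highest per kb were Dppa5a (16142), Pou5f1 (5309) and Zfp42 (4840). Of 14 genes of fibroblast feeders, 8 (57.1%) had a mean count of at least 100, near the 56.3% of all genes. The highest per kb were Lgals1 (1077), S100a6 (922) and Sparc (806), genes that are not restricted to fibroblasts. Mean counts of the other 5 that reached 100 were 4941 for the fibronectin gene Fn1, 2073 for Vim, 345 for Tagln, 116 for Thy1 and 103 for Acta2. The remaining 6 were collagen genes and genes of fibroblast matrix proteins at low levels, with mean counts of 19.8 for Col1a1, 13.8 for Col1a2, 8.38 for Col3a1, 7.50 for Dcn, 1.45 for Lum and 0.768 for Postn. Fgfr1, which fibroblasts also express, stood at 61.4 per kb. The 14 feeder genes ran from 0.0882 for Postn to 1077 for Lgals1, too wide a range to place Fgfr1 by. The part of feeder RNA in the levels of the 10 genes was not tested.

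Markers of lineages whose formation depends on FGF signalling were mixed. Of the transcription factor genes of primitive endoderm, mean counts were 19.3 for Gata4, 8.04 for Gata6, 10.5 for Sox17 and 26.1 for Sox7, while the laminin gene Lama1 had 1594 and Dab2 had 162. Pdgfra, which encodes a receptor of the same lineage, had 39.1. The trophoblast genes Cdx2 and Elf5 had 9.63 and 2.07, while Eomes had 308, Krt18 438 and Krt8 852, the keratins being expressed in other epithelia too. Of 5 primed epiblast genes, mean counts were 4692 for Dnmt3b, 1230 for Otx2, 233 for Lef1, 229 for Fgf5 and 209 for Pou3f1.

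The transcripts were then examined for features that m6A is known to follow, as METTL3 was the protein targeted. m6A is found in the core sequence GGACT more often than in most others, and it is concentrated in long exons and around stop codons. GGACT was searched on the sense strand of the longest annotated transcript of each gene, where overlapping matches cannot occur. Of all genes 91.7% held at least 1 GGACT, and so did each of the 10. The median density was 1.34 per kb for the 10 genes and 1.04 per kb for all genes, and 6 of the 10 were above the median gene.

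The 10 genes fell far apart in this respect. Spry2 held 7 GGACT in 2087 bases, 3.35 per kb, which was above 98.9% of the other genes, and Dusp6 held 8 in 2796 bases, 2.86 per kb, above 97.3%. Fgfr1 had 1.59, Etv5 1.51, Fgfr2 1.35 and Fgf4 1.32 per kb. Below the median gene were Dusp5 with 0.809, Spred1 with 0.665, Spry4 with 0.421 and Etv4 with 0.418 per kb. The paralogs Spry2 and Spry4 thus stood far apart, Spry4 with 2 GGACT in 4755 bases lying above 14.8% of the other genes. These are counts of a few matches in 1 annotated transcript each.

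The longest exon gave a different order. It measured 4978 bases in Spred1 and 4509 bases in Spry4, above 93.7% and 91.5% of the other genes, and 844 bases in Etv4, above 24.3%. It was 1855 bases in Spry2 and 1497 bases in Dusp6. The receptors are split into many exons (18 in Fgfr1 and 17 in Fgfr2), while Spry2 and Spry4 have 2 and Fgf4 and Dusp6 have 3, against a median of 7 over all genes.

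**Figure D5:**
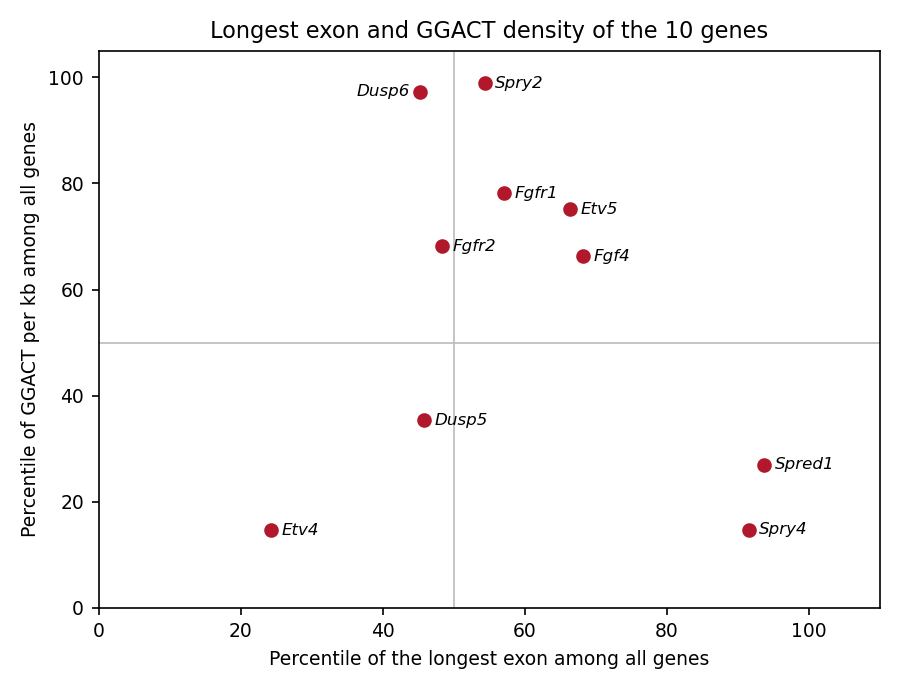
Percentile of the longest exon (horizontal) and of GGACT per kb (vertical) of the 10 genes among 17375 genes, with grey lines at the medians. Spry2 and Dusp6 lie at the top for GGACT, while Spred1 and Spry4 combine long exons with few GGACT.

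The 3 genes with the highest GGACT density, Spry2, Dusp6 and Fgfr1, are shown by the GGACT nearest to their stop codon, in the sense strand from 5′ to 3′, read from the GENCODE transcripts, with GGACT in capitals and 8 bases on each side.
Spry2: tgactatgGGACTtgtgtgtg
Dusp6: taccaggtGGACTccctgcag
Fgfr1: ccaacagtGGACTcaaacggc
All 3 lie in coding sequence of the last exon. The Dusp6 window (chr10:99266270-99266290, plus strand, GRCm38, exon 3 of 3) begins its core 21 bases before the end of the stop codon, and that of Fgfr1 (chr8:25573896-25573916, plus strand, exon 18 of 18) 17 bases before it. In Spry2 (chr14:105893092-105893112, minus strand, exon 2 of 2) the distance was 301 bases. A match of these letters is not evidence of a methylated base, and methylation was not measured in these libraries.

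Within 200 bases of the end of the stop codon there were 2 GGACT in Dusp6, 2 in Fgfr1 and 1 in Dusp5. The other 7 genes had none. The same search was not run over all genes, so whether these counts are high or low is not known. In the longest coding transcripts, Fgfr1 had 8 GGACT before the stop codon and 0 after it, Dusp6 had 7 and 1, and Spry2 had 6 and 1. Etv5 had 2 before and 4 after, and in Spry4, Dusp5 and Etv4 every GGACT lay after the stop codon.

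Reads that fit more than 1 place were dropped by the authors, so sequence shared with other genes can lower a count. Of the 81-base words of the longest transcript, as long as a read, none was found in transcripts of another gene for Fgf4, Fgfr2, Spry2, Spry4, Spred1, Dusp6 and Etv4. In Etv5, 19.7% of the words were shared with Gm4798, a processed pseudogene, so the level of Etv5 is uncertain. Reads came in pairs and words were searched singly, so this percent is not the share of counts lost. In Dusp5, 19.5% of the words were shared with an antisense gene that covers 22.1% of its exon bases. In Fgfr1, 1.73% were shared with an antisense gene that covers 1.66%. These antisense genes lie at the same place, so their reads still fit 1 place and matter only if the counting ignored strand. The libraries were stranded and the deposited values are labelled reverse, but the study states default parameters for its analysis. Whether the counting used strand is therefore not settled here, and the level of Dusp5 is uncertain for that reason. The exons of Fgfr2 overlap those of Ctbp2 on the same strand over 3.04% of their bases.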

How the data were processed

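RNA was measured in 8 libraries (4 dTAG-13, 4 untreated). The extraction text of the labels describes chromatin RNA, the molecule label and the study's methods total RNA. The authors removed ribosomal reads with bowtie2, aligned the rest with STAR to the N-masked mm10 genome, kept unique alignments, removed duplicates with Picard and ran TEtranscripts with default parameters. The deposited signal used here is the authors' mean over all libraries of size-factor-scaled counts. The other 5 columns hold the authors' own comparison of both groups (fold change, its standard error, statistic, p and adjusted p) and were not used, so no test between groups was made. Replicates and depth of single libraries were not analysed here.

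With Python 3.11.15 and scipy 1.17.1, levels were divided by the union exon length in GENCODE vM21 (GRCm38, the build of mm10). The study took its gene annotation from the UCSC genome browser, so counts and lengths can rest on different exons. Of the gene symbols, 16660 matched directly and 715 through a RefSeq synonym, 188 had no match and 34 with several matches were left out, so 98.7% had a length. The percentile of a gene is the percent of other genes with a lower value. Functions were tested on simulated data. Alternatives were other lengths, a minimum mean count of 10, and ranking with transposable elements. Named genes are all 10 members, pathway genes whose mean count reached 100, the highest of each list, the 3 highest markers and the defining markers; further low genes were named after their values were seen, and the values of some relay genes are not reported here. The members and lists were chosen with earlier results of these data known. The planned protein identity was not run, as no protein sequences were used here.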

Additional observations from a re-analysis of the deposited data

How the results depend on the processing

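No test was made, so the alternatives concern levels, shares and counts. No paired analysis was possible because the column used is a mean over all libraries and carries no replicate numbers, and for the same reason no library could be left out. With a minimum mean count of 100 in place of 10, 5 ligands in place of 12 counted as present, while the counts of the other 5 role lists moved by less than 1.5 times. Ranking only genes whose mean count reached 10 lowered the percentile of all 10 genes on both scales, most for Dusp5, from 41.5 to 24.3 by mean count. Ranking with transposable elements moved none of the 10 beyond its 95% exact binomial interval. Division by the mean transcript length moved the percentile per kb of Spry4 most, from 76.9 to 60.8. Without division by length, 8 of the 10 family shares moved beyond their interval, and that of Spry4 moved most, from 29.6% to 47.2%, above Spry2 at 40.0%. With the mean transcript length 5 of the 10 shares moved, that of Dusp6 most, from 18% to 27.6%. Counting GGACT in the longest coding transcript, or over all transcripts, both chosen after seeing the data together with the length of the longest coding transcript, moved none of the 10 densities beyond its interval. The longest coding transcript changed only the density of Fgfr2, from 1.35 to 1.16 per kb. Spry2, Spry4 and Dusp5 have 1 transcript each, so their densities could not change. The intervals were wide, from 0.360 to 3.38 per kb for Fgf4, so they could hardly show a change. GGACT over the union of exons was not run, as no genome sequence was used here. The intervals treat the other genes (percentiles), the pooled mean counts (shares) or the transcript bases (GGACT) as independent draws. They hold no spread between libraries.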
